A study of Mus musculus with 12 samples.

Results

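The genes described here encode the factors that start protein synthesis on an mRNA and the factors that extend the peptide chain, in whole kidneys of newborn mice that overexpressed LIN28B or lacked part of the let-7 microRNA family. They are all genes whose symbol begins with Eif1 to Eif6 or with Eef1 or Eef2, without the sex-linked pair Eif2s3x and Eif2s3y and without pseudogenes named -ps. The count files held 61 of them among 24062 genes, of which 53 were initiation factors or their regulators and 8 were elongation factors or their regulators.

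Kidneys were taken at postnatal day 3 in 4 groups of 3, and each kidney was sequenced as a library of its own. LIN28B OE kidneys carried human LIN28B under a doxycycline-dependent promoter, with the transactivator switched on by Cre in Wt1-expressing cells, on C57BL/6. The study describes induction of this model by a pulse of doxycycline in late gestation. Because Cre switches the transactivator on, the transgene acts only in cells of the Wt1 lineage, while the library covers the whole organ. The B6 WT kidneys came from wild-type littermates on C57BL/6. The let-7 KO kidneys lacked let-7a1, let-7d and let-7f1 in every cell, on a mixed CD1 and C57BL/6 background, and the mixed WT kidneys came from their wild-type littermates. The doxycycline given to each dam and the transgene alleles carried by controls are not stated in the labels. Every group drew on 2 litters, with 2 kidneys from the first and 1 from the second.

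In eukaryotes, initiation begins when eIF2 brings the initiator tRNA to the small ribosomal subunit, which eIF3, eIF1 and eIF1A hold ready for an mRNA. The eIF4F complex, with the cap-binding protein eIF4E, the scaffold eIF4G and the helicase eIF4A, loads the mRNA, and eIF5 and eIF5B bring the large subunit in at the start codon. In elongation, eEF1A delivers each aminoacyl-tRNA, the eEF1B subunits recharge eEF1A with GTP, and eEF2 moves the ribosome along the mRNA. Many mRNAs of elongation factors belong to the TOP class, whose 5′ ends carry a pyrimidine tract and whose translation depends on mTOR. LIN28 proteins block the maturation of let-7 and also bind mRNAs of the translation apparatus, and growing progenitor cells are rich in this apparatus.

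The 3 deleted microRNAs are shown because their shared seed, bases 2 to 8 in capitals, decides which mRNAs they can pair with. The sequences are RefSeq's, in GRCm38.p6, 5′ to 3′, from the minus strand of chromosome 13, at chr13:48538239-48538260, chr13:48536078-48536099 and chr13:48537889-48537910 in the order printed.
mmu-let-7a-5p: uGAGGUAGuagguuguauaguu
mmu-let-7d-5p: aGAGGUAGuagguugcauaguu
mmu-let-7f-5p: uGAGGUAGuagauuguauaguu
All 3 fall in the same seed group. The match to this seed, CTACCTC, was searched on the transcript strand, using for each gene the longest 3′ UTR annotated (GENCODE M21 on GRCm38). It was found in 3 of the 57 factor genes tested, or 5.26%, against 10.4% of 14224 genes with an annotated 3′ UTR tested in LIN28B OE kidneys and 10.5% of 14042 in let-7 KO kidneys. The median 3′ UTR length was 957 bases for the factors and 1140 bases for all genes. The 3 matches are printed 5′ to 3′ with the 7 bases in capitals, since they are the places where this pairing can be looked for among the factors.
Eef2k, 3′ UTR, chr7:120904014-120904036, plus strand: atacatgcgtatttaCTACCTCt
Eif4g2, 3′ UTR, chr7:111072207-111072229, minus strand: atattgcctgtatttCTACCTCt
Eif6, 3′ UTR, chr2:155825375-155825397, minus strand: ttgatacaccttcatCTACCTCc
None of the 3 extends to an A after the match. Their log2 fold changes in let-7 KO kidneys were 0.21 for Eef2k (standard error, SE, 0.28), -0.35 for Eif4g2 (0.26) and 0.45 for Eif6 (0.20), and in LIN28B OE kidneys they were -0.29 (0.24), 0.12 (0.20) and 0.52 (0.17). None had an unadjusted p below 0.01 in the main edgeR fits. For Eif6 in LIN28B OE kidneys, DESeq2 gave a Benjamini-Hochberg adjusted p of 0.0396. Without LIN28B OE kidney 3, edgeR gave it an adjusted p of 0.00456. Eef2k and Eif4g2 had an adjusted p of 0.511 or more in these same 2 fits. The genes that stood out below, among them Eef1g, Eef1b2, Eef1a1, Eif5a and Eif4ebp1, held no CTACCTC in that UTR. Other let-7 pairings were not searched.

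Depth lay between 39926235 and 61872736 counts per kidney, where 3 counts correspond to 0.0485 to 0.0751 counts-per-million units (CPM). Levels below are CPM after TMM scaling, which adjusts each library for its composition. Hmga2, a known let-7 target, had 12669, 11014 and 9474 counts in LIN28B OE kidneys against 735, 630 and 860 in B6 WT kidneys. The mouse Lin28b row held 232, 224 and 71 counts in LIN28B OE kidneys and 0, 18 and 33 in B6 WT kidneys, and reads of the human transgene on that row cannot be told apart from mouse Lin28b. LIN28B OE kidney 3, the kidney of the second litter, stood apart in the elongation factors described below. It did not in the share of all counts on initiation factors, but was lowest of its group there after TMM scaling. It had the lowest Lin28b and Hmga2 counts of its group and the highest level of Six2, at 168 CPM. A relation of the factor levels to the transgene level was not tested. Mirlet7d was listed at 0 in all 3 let-7 KO kidneys and at 0, 19 and 35 counts in mixed WT kidneys, too few to check the deletion by itself.

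In control kidneys the factors ranged from among the most abundant mRNAs to undetected ones. Scaled for length, Eef1a1 was the most abundant at 1022 RPKM (CPM per kilobase of annotated exon) in B6 WT, at rank 7 among all genes with a length. It was followed by Eif5a at 487.5, Eif1 at 317 and Eef2 at 229. The next were Eif4a1 at 214 and Eef1g at 128 RPKM. Eef2 and Eif4a1 changed places in mixed WT kidneys, at 217 and 223 RPKM. The rarest tested factors were regulators, among them Eef2k at 2.76 and Eif4ebp2 at 3.60 RPKM in B6 WT. Eef1a2, which replaces Eef1a1 in adult muscle and neurons, reached at most 0.183 CPM in any kidney, in a tissue where the 5 muscle and brain markers together reached at most 4.23 CPM. Eif3j1, Eif3j2 and Eif4e1b were listed at or near 0. Eif3j1 and Eif3j2 are near-identical copies, and the treatment of reads that map to both is not given in the sources used here. These 4 genes did not pass the count filter, which left 50 initiation and 7 elongation factors in every comparison. Eef1a1, Eif5a and Eif4a1 also have many processed copies in the genome, so their absolute levels are uncertain.

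The first question was how the elongation factors differed between the models and their littermates. Of the 6 genes of the eEF1 complex, Eef1g, Eef1d and Eef1b2 were called higher in LIN28B OE kidneys, by a fitted 1.80-fold, 1.74-fold and 1.67-fold. Eef1b2, Eef1g and Eef1a1 were called higher in let-7 KO kidneys, by 1.67-fold, 1.67-fold and 1.56-fold. The size varied greatly between kidneys of a group. A call here is an unadjusted p below 0.01 in edgeR's quasi-likelihood test, the threshold used in the study. In this main fit no factor reached a Benjamini-Hochberg adjusted p below 0.05 in either model. Of all genes, 1.23% did in LIN28B OE and 0.0194% in let-7 KO kidneys. The p-values printed are adjusted over all genes tested.

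Eef1g (ENSMUSG00000071644.10, chr19:8967041-8978479) encodes the structural gamma subunit of eEF1B. It stood at 304, 323 and 373 CPM in B6 WT kidneys and at 678, 690 and 430 CPM in LIN28B OE kidneys. All 3 LIN28B OE kidneys lay above all 3 controls, with the third nearest to them. The log2 fold change was 0.85 (SE 0.19, adjusted p = 0.0605 by edgeR). In mixed WT kidneys Eef1g stood at 314, 356 and 289 CPM and in let-7 KO kidneys at 422, 561 and 622 CPM. These groups did not overlap either, and the log2 fold change was 0.74 (SE 0.19, adjusted p = 0.362). Eef1g was the elongation factor with the smallest p in both models.

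Eef1b2 (ENSMUSG00000025967.16, chr1:63176825-63180486) encodes the exchange subunit beta. Its levels were 143, 163 and 194 CPM in B6 WT against 312, 340 and 182 CPM in LIN28B OE kidneys. Kidneys 1 and 2 of the model lay far above the controls, and kidney 3 lay among them. Its log2 fold change was 0.74 (SE 0.23, adjusted p = 0.13). In the other model it stood at 148, 157 and 145 CPM in mixed WT and at 188, 224 and 343 CPM in let-7 KO kidneys. All let-7 KO kidneys were above their controls, by 0.74 on the log2 scale (SE 0.22, adjusted p = 0.362).

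Eef1d (ENSMUSG00000055762.16, chr15:75894205-75909556), the delta exchange subunit, showed the same arrangement. It measured 144, 167 and 197 CPM in B6 WT and 364, 324 and 196 CPM in LIN28B OE kidneys, with kidney 3 again inside the range of the controls. The log2 fold change was 0.80 (SE 0.22, adjusted p = 0.108). Among let-7 KO kidneys the levels were 181, 266 and 344 CPM against 170, 167 and 155 CPM, with no overlap, and it was not called.

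Eef1a1 (ENSMUSG00000037742.14, chr9:78478449-78489151), the tRNA carrier, took up 59.7% to 66.3% of all elongation factor counts in every kidney. It stood at 2251, 2404 and 2988 CPM in B6 WT and at 3891, 3893 and 2670 CPM in LIN28B OE kidneys. The groups overlapped through the third kidney of each, and the difference of 0.46 on the log2 scale (SE 0.16, adjusted p = 0.184) was not called. In mixed WT kidneys it was 2663, 2729 and 2401 CPM and in let-7 KO kidneys 3211, 4081 and 4889 CPM. Here the groups were separate, and the log2 fold change of 0.64 (SE 0.18, adjusted p = 0.362) was called.

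**Figure D1:**
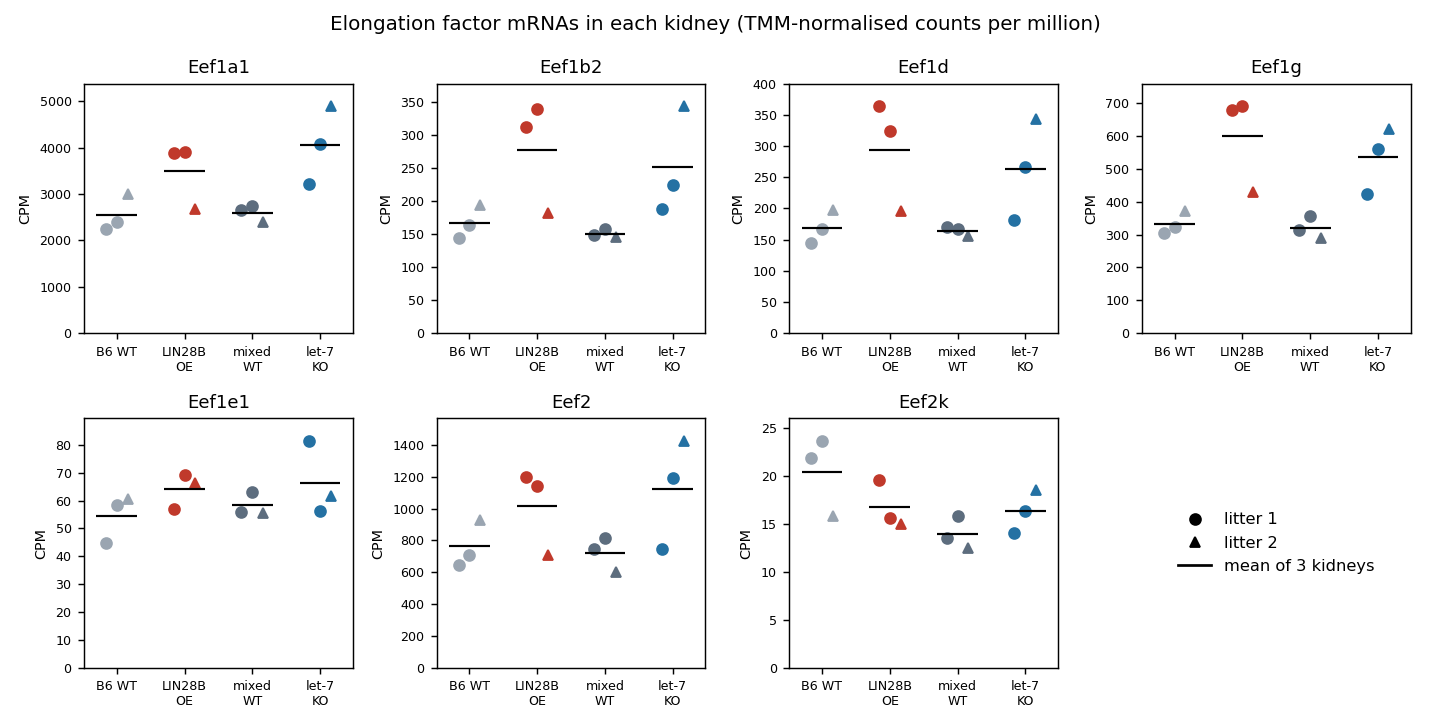
Level of the 7 tested elongation factor genes in each of 12 kidneys, in TMM-normalised CPM from 0, by group; circles are litter 1, triangles litter 2 and bars the mean of 3 kidneys. Eef1g separates both models from their controls, while LIN28B OE kidney 3 (triangle) lies near the controls for Eef1a1, Eef1b2, Eef1d and Eef2.

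The translocase Eef2 was 646, 711 and 931 CPM in B6 WT against 1198, 1142 and 708 CPM in LIN28B OE kidneys. It was 749, 814 and 600 CPM in mixed WT against 748, 1193 and 1425 CPM in let-7 KO kidneys. The groups overlapped in both models, and neither difference was called, at 0.42 (adjusted p = 0.333) and 0.63 (adjusted p = 0.392) on the log2 scale. Eef2k, the kinase that inhibits eEF2, differed by -0.29 (adjusted p = 0.584) and 0.21 (adjusted p = 0.827). Eef1e1, which despite its name serves the multi-tRNA synthetase complex, differed by 0.24 (adjusted p = 0.52) and 0.18 (adjusted p = 0.789).

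Over the 7 tested elongation factors, 3 were called in LIN28B OE kidneys (Eef1b2, Eef1d and Eef1g), all higher, where 7.33% of 15793 genes were called and 3.25% were called higher. Their median log2 fold change was 0.46 against -0.02 for all genes. For let-7 KO kidneys the count was 3 called (Eef1a1, Eef1b2 and Eef1g), all higher, where 2.73% of 15500 genes were called and 1.1% were called higher, and their median was 0.64 against -0.02. All let-7 KO kidneys lay above all controls for 4 of 7, where 7.81% of all genes did, and all LIN28B OE kidneys did for 1 of 7, where 10.3% of all genes did. With 7 genes, each gene weighs heavily in these shares. At an adjusted p below 0.05 edgeR called 0 of 7 in both models, with 4 of 7 in LIN28B OE and 5 of 7 in let-7 KO kidneys at an unadjusted p below 0.05, where 18% and 10.8% of all genes were. DESeq2 called 3 and 2 of 7 at an adjusted p below 0.05, where it called 8% and 1.04% of all genes. At its unadjusted p below 0.01 it called 4 and 5 of 7, where 10.9% and 5.44% of all genes were called.

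Summed over its genes, the elongation group made up 0.379%, 0.406% and 0.489% of the counts in B6 WT and 0.646%, 0.635% and 0.452% in LIN28B OE kidneys. The third LIN28B OE kidney lay below the third control. The means were 0.425% ± 0.0573 (SD, n = 3) and 0.578% ± 0.109, a difference of 0.153 percentage points (exact permutation test, two-sided, p = 0.2, where 0.1 is the smallest p that 3 against 3 allow). In mixed WT kidneys the share was 0.400%, 0.424% and 0.381%, and in let-7 KO kidneys 0.479%, 0.599% and 0.701%. These did not overlap, and the difference of 0.192 percentage points reached the smallest p that the exact permutation test allows, 0.1.

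**Figure D2:**
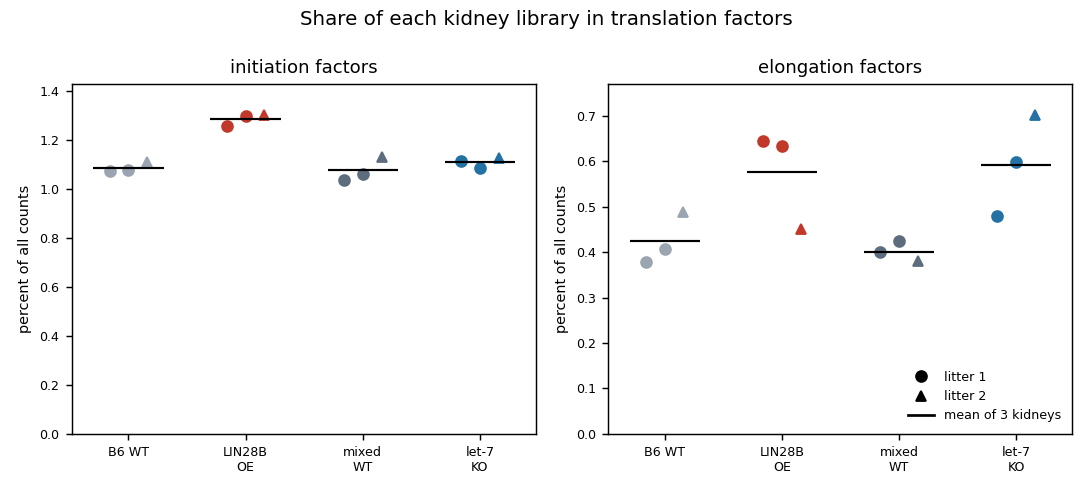
Percent of all counts of a library that fell on initiation factors (left) and elongation factors (right), from 0, for 12 kidneys; circles are litter 1, triangles litter 2 and bars group means. LIN28B OE kidneys are apart from B6 WT in initiation factors at 1.26% to 1.30%, and let-7 KO kidneys are apart from mixed WT in elongation factors.

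These calls moved when a kidney was left out. Without LIN28B OE kidney 3, edgeR called 5 of 7 elongation factors in that model, all of them also at an adjusted p below 0.05, while 15.4% of all genes were called and 12.8% had such an adjusted p. Leaving out B6 WT kidney 1, B6 WT kidney 2, LIN28B OE kidney 1 or LIN28B OE kidney 2 left 1 of 7, and leaving out B6 WT kidney 3 left 2. In the other model 5 of 7 were called without let-7 KO kidney 1, where 8.12% of all genes were called. Leaving out let-7 KO kidney 2, let-7 KO kidney 3, mixed WT kidney 1 or mixed WT kidney 3 left 0 of 7, and leaving out mixed WT kidney 2 left 1. For the fits given without a share of all genes, that share was not computed, so their counts cannot be set against it. With litter as a block, since littermates were compared, 1 of 7 was called in LIN28B OE kidneys (Eef1g), where 5.72% of all genes were called, and 2 of 7 in let-7 KO kidneys (Eef1a1 and Eef1g), where 1.86% were.

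A property of the libraries moved with these levels. The length used was that of all annotated exons of a gene joined, which can exceed any single transcript. The slope of log2 CPM on this log2 exonic length, over 15768 genes, was 0.71, 0.68 and 0.60 in B6 WT kidneys. It was 0.58, 0.60 and 0.72 in LIN28B OE kidneys. It was 0.67, 0.59 and 0.72 in mixed WT and 0.65, 0.54 and 0.49 in let-7 KO kidneys. In each of the 4 groups, the order of the 3 kidneys by slope was the reverse of their order by elongation factor level. The tested elongation factors had a median exonic length of 3257 bases against 4218 for all genes. The median log2 deviation of the elongation factors from their own controls was 0.97 in let-7 KO kidney 3, at the lowest slope, and 0.13 in LIN28B OE kidney 3, at the highest. With the slope as a term in the fit, 5 of 7 were called in LIN28B OE kidneys, where 11.8% of all genes were called. The median log2 fold change of the 7 was then 0.35. All 5 also had an adjusted p below 0.05, a share not computed for all genes in that fit. In let-7 KO kidneys the same fit called 1 of 7 (Eef1g), with a median of 0.29, where 1.67% of all genes were called.

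**Figure D3:**
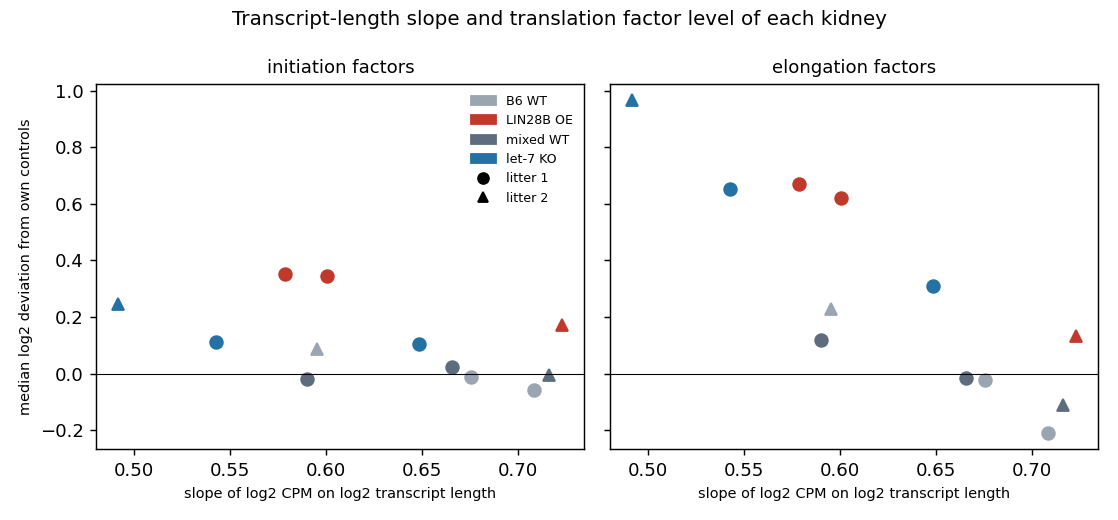
Median log2 deviation of the tested initiation (left) and elongation factors (right) from the mean of their own controls, for 12 kidneys. The horizontal axis, labelled transcript length, is the slope of log2 CPM on log2 exonic length. Colours mark groups, circles litter 1 and triangles litter 2. Elongation factor levels fall from 0.97 at a slope of 0.49 to -0.21 at 0.71, with LIN28B OE kidney 3 at 0.13 and 0.72, and initiation factors vary less.

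The next question was how the initiation factors differed. Of 50 tested in LIN28B OE kidneys, 6 were called (Eif3e, Eif3g, Eif4a3, Eif4ebp1, Eif5a and Eif5b), all higher, where 7.33% of all genes were called and 3.25% called higher. Of the 50, 40 had a log2 fold change above 0, where 48.5% of all genes did. The median was 0.30, against -0.02 for all genes. For 20 of 50 every LIN28B OE kidney lay above every control, where 10.3% of all genes did, and for 2, Eif4e3 and Eif4ebp2, every one lay below, where 13.6% did. EdgeR called 0 at an adjusted p below 0.05, with 23 of 50 at an unadjusted p below 0.05, where 18% of all genes were. DESeq2 called 8 of 50 at an adjusted p below 0.05, where it called 8% of all genes. With litter as a block 2 of 50 were called, Eif4ebp1 and Eif5a, a share below the 5.72% of all genes called in that fit.

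The share of counts on initiation factors was 1.07%, 1.08% and 1.11% in B6 WT and 1.26%, 1.30% and 1.30% in LIN28B OE kidneys. Kidney 3 did not stand apart in this share, and the groups were well separated. The means were 1.09% ± 0.0197 (SD, n = 3) and 1.29% ± 0.0235, and the exact permutation test gave its smallest p, 0.1. Scaled to TMM library sizes, the LIN28B OE shares were 1.27%, 1.32% and 1.23%, with kidney 3 lowest, against 1.01%, 1.02% and 1.08% in B6 WT. The median log2 deviation of the initiation factors from their controls was 0.35, 0.34 and 0.17 in LIN28B OE kidneys 1, 2 and 3. The share of all counts in let-7 KO kidneys was 1.11%, 1.09% and 1.13%, against 1.04%, 1.06% and 1.13% in mixed WT. These groups overlapped (difference 0.0318 percentage points, exact permutation p = 0.4). Scaled to TMM library sizes in place of all counts, the let-7 KO kidneys lay above their controls, by 0.0974 percentage points (exact permutation p = 0.1).

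Eif5a (ENSMUSG00000078812.10, chr11:69916714-69921958), the hypusinated factor that relieves stalled ribosomes and is named as an initiation factor for historical reasons, had the smallest standard error among the called factors. It stood at 1141, 1138 and 1198 CPM in B6 WT and at 1507, 1650 and 1526 CPM in LIN28B OE kidneys. The kidneys of each group were close together, and the groups did not overlap. The log2 fold change was 0.43 (SE 0.10, adjusted p = 0.0707). Its levels in let-7 KO kidneys were 1212, 1311 and 1409 CPM against 1212, 1539 and 1241 CPM, a difference of -0.03 (SE 0.16), with the groups overlapping. The difference between the 2 models was 0.44 on the log2 scale by an interaction test (adjusted p = 0.746) and adjusted p = 0.746. Its paralogue Eif5a2 was rare, at 17.1, 7.91 and 17.7 CPM in mixed WT and 7.95, 6.75 and 6.57 CPM in let-7 KO kidneys. The second mixed WT kidney lay with the let-7 KO kidneys, and the log2 fold change of -1.01 (SE 0.38, adjusted p = 0.392), the lowest of any factor there, was not called.

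The inhibitors that hold eIF4E away from eIF4G differed in opposite directions. Eif4ebp1 (ENSMUSG00000031490.6, chr8:27260329-27276674), the mTOR-regulated 4E-BP1, was 79.9, 86.1 and 94.0 CPM in B6 WT and 151, 136 and 108 CPM in LIN28B OE kidneys. All LIN28B OE kidneys were above all controls, and the log2 fold change was 0.60 (SE 0.16, adjusted p = 0.0943). In let-7 KO and mixed WT kidneys it overlapped, at 109, 125 and 150 CPM against 118, 154 and 100 CPM. Eif4ebp2, its relative, was lower in every mutant kidney of both models. It was 21.6, 18.8 and 22.1 CPM in B6 WT against 14.8, 12.2 and 17.8 CPM, and 18.4, 21.1 and 18.2 CPM in mixed WT against 10.1, 13.8 and 10.7 CPM in let-7 KO kidneys. The log2 fold changes were -0.48 (adjusted p = 0.306) and -0.75 (adjusted p = 0.392), neither of them called. Eif4ebp3 differed by 0.76 (adjusted p = 0.301) and 0.48 (adjusted p = 0.743), at 4.69 to 14.9 CPM over all kidneys of the models. Eif4enif1 differed by -0.21 and -0.28.

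The eIF3 complex, the scaffold of the small subunit, was the largest group, with 12 of 14 genes tested. In LIN28B OE kidneys 11 of 12 were above 0, 2 were called and 7 had separate groups, with a median log2 fold change of 0.42. Eif3e, a subunit whose mRNA is of the TOP class, was 176, 176 and 212 CPM in B6 WT and 266, 286 and 228 CPM in LIN28B OE kidneys. These groups did not overlap (log2 fold change 0.47, SE 0.14, adjusted p = 0.125). Eif3g measured 169, 177 and 218 CPM against 294, 285 and 223 CPM, a difference of 0.51 (adjusted p = 0.13). The largest subunit, Eif3a, differed by 0.30 (adjusted p = 0.391) with overlap, and Eif3l was the subunit below 0, at -0.04. The let-7 KO kidneys had 11 of 12 above 0 and 0 called, with a median of 0.35 and 4 at an unadjusted p below 0.05. Eif3f reached 0.69 (adjusted p = 0.387) through kidneys 2 and 3, at 137, 202 and 295 CPM against 135, 138 and 117 CPM.

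In eIF4F and its helpers, 8 of 11 were above 0 in LIN28B OE kidneys and 6 of 11 in let-7 KO kidneys, with medians of 0.17 and 0.12. Eif4a3, the helicase of the exon junction complex, was the called member, at 187, 210 and 229 CPM in B6 WT and 279, 312 and 253 CPM in LIN28B OE kidneys (log2 fold change 0.44, adjusted p = 0.135). The initiation helicase Eif4a1 was 857, 883 and 1047 CPM against 1197, 1205 and 1082 CPM, with separate groups (0.33, adjusted p = 0.188), and its paralogue Eif4a2 differed by -0.14 (adjusted p = 0.642). The cap-binding Eif4e differed by 0.17 (adjusted p = 0.621) in LIN28B OE kidneys. The levels in let-7 KO kidneys were 268, 179 and 124 CPM against 217, 231 and 236 CPM, on both sides of the controls (-0.27, adjusted p = 0.744). The scaffold Eif4g1 was 220, 214 and 214 CPM in B6 WT and 226, 276 and 282 CPM in LIN28B OE kidneys (0.28, adjusted p = 0.297), and 186, 164 and 229 CPM in mixed WT against 168, 161 and 138 CPM in let-7 KO kidneys (-0.32, adjusted p = 0.563). It had the smallest p of any factor for a difference between the models (adjusted p = 0.692).

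**Figure D4:**
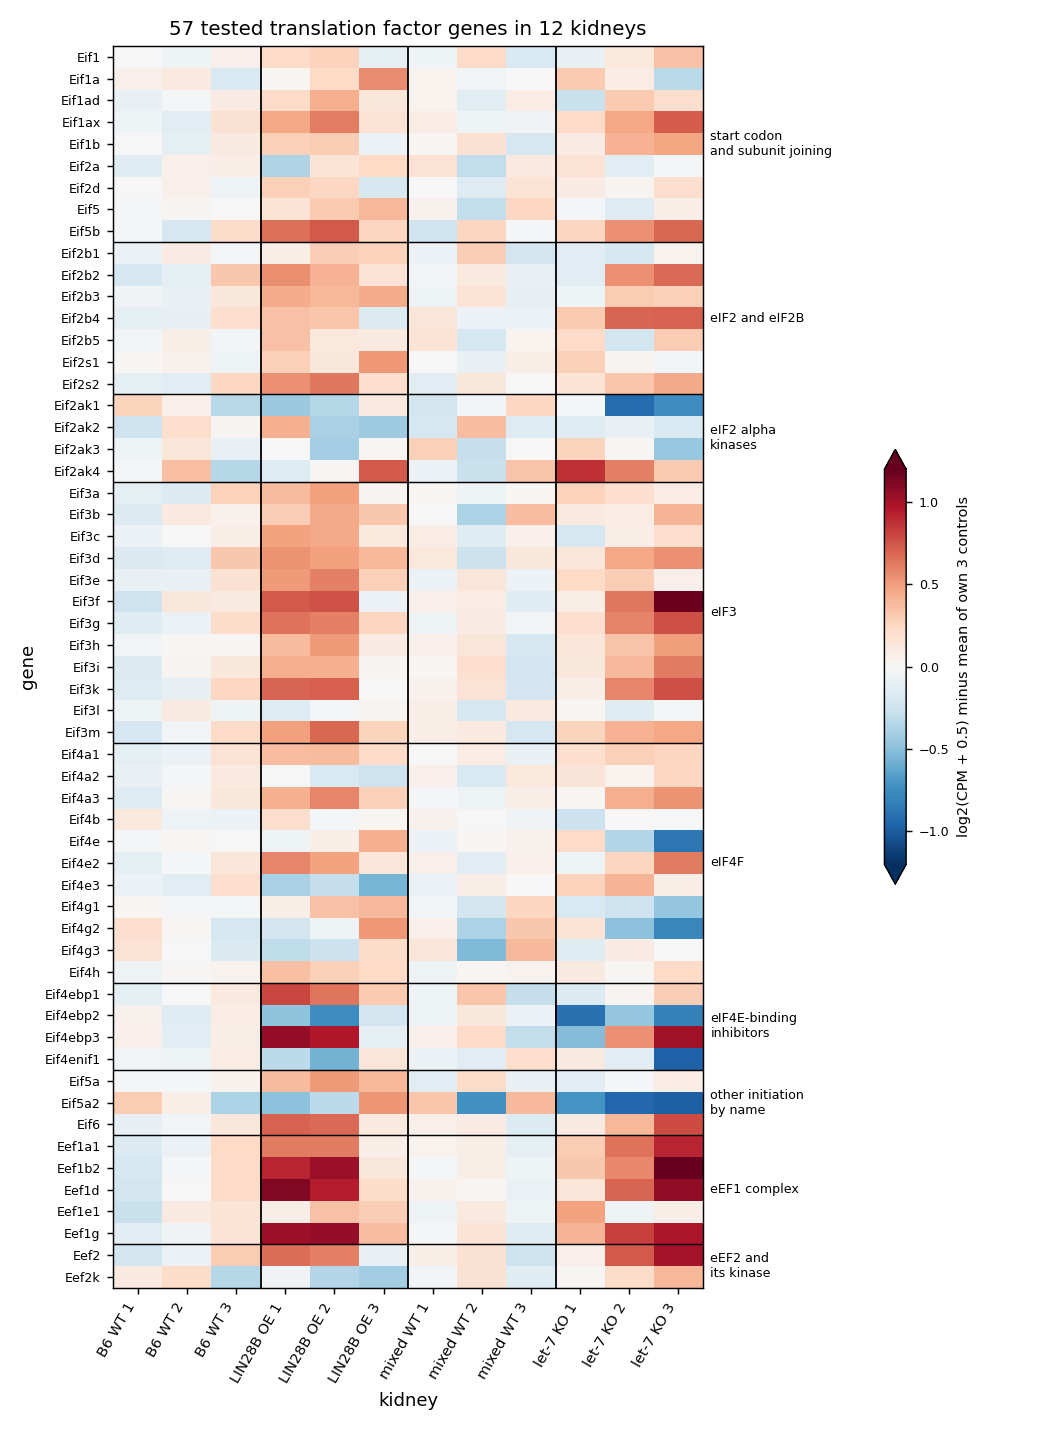
Level of the 57 tested genes (vertical) in 12 kidneys (horizontal), as log2(CPM + 0.5) minus the mean of the 3 controls of the same strain, by role; red is higher, blue lower. LIN28B OE kidneys 1 and 2 and let-7 KO kidneys 2 and 3 are red over most of eIF3 and eEF1, and LIN28B OE kidney 3 and let-7 KO kidney 1 are paler.

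eIF2 and its regulators form the next group. All 7 genes of eIF2 and its exchange factor eIF2B were above 0 in LIN28B OE kidneys, from 0.19 to 0.47, and 0 were called, with 3 at an unadjusted p below 0.05. Eif2s2, the beta subunit, differed by 0.47 (adjusted p = 0.163) and Eif2s1, the alpha subunit phosphorylated under stress, by 0.33 (adjusted p = 0.255). The catalytic eIF2B subunit Eif2b5 differed by 0.20 (adjusted p = 0.481). In let-7 KO kidneys the called initiation factor was Eif2b4, the delta subunit of eIF2B, at 77.5, 66.9 and 66.7 CPM in mixed WT and 87.5, 115 and 115 CPM in let-7 KO kidneys. These groups did not overlap (0.58, SE 0.18, adjusted p = 0.366). The 4 eIF2 alpha kinases were not called in either model in the main fit, and had medians of -0.10 and -0.11. Eif2ak1 differed by -0.53 in let-7 KO kidneys (adjusted p = 0.496). Without let-7 KO kidney 1 it was called lower there, at -0.87 (adjusted p = 0.0874). Eif2ak4 (GCN2), the sensor of uncharged tRNA, was 20.3, 17.7 and 27.3 CPM in mixed WT and 39.7, 32.7 and 26.7 CPM in let-7 KO kidneys (0.60, adjusted p = 0.448), and Eif2ak3 (PERK) differed by -0.05. With the length slope as a term Eif2ak4 was called higher in let-7 KO kidneys, by 0.99 on the log2 scale, with an adjusted p of 0.538, and Eif2b4 was not, at 0.42.

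For start codon selection and subunit joining, all 9 genes were above 0 in LIN28B OE kidneys and 7 of 9 in let-7 KO kidneys. The GTPase Eif5b was 98.2, 86.4 and 116 CPM in B6 WT and 158, 166 and 119 CPM in LIN28B OE kidneys, separate by a narrow margin at kidney 3 (0.56, adjusted p = 0.13). Eif1ax differed by 0.43 (adjusted p = 0.195) and 0.48 (adjusted p = 0.392), Eif1a by 0.29 (adjusted p = 0.417) and 0.04 (adjusted p = 0.959), Eif1 by 0.15 (adjusted p = 0.617) and 0.12 (adjusted p = 0.844), and Eif5 by 0.30 (adjusted p = 0.213) and -0.05 (adjusted p = 0.945). Eif6, which keeps the large subunit from joining too early, differed by 0.52 (adjusted p = 0.149) and 0.45 (adjusted p = 0.452).

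In let-7 KO kidneys as a whole, 1 of 50 initiation factors was called, where 2.73% of all genes were called, and 34 of 50 were above 0, where 48% of all genes were. Their median was 0.13. All let-7 KO kidneys lay above all controls for 11 of 50, where 7.81% of all genes did, and below for Eif4ebp2, where 8.98% did. EdgeR and DESeq2 each called 0 at an adjusted p below 0.05, with 11 of 50 at an unadjusted p below 0.05 in edgeR, where 10.8% of all genes were.

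**Figure D5:**
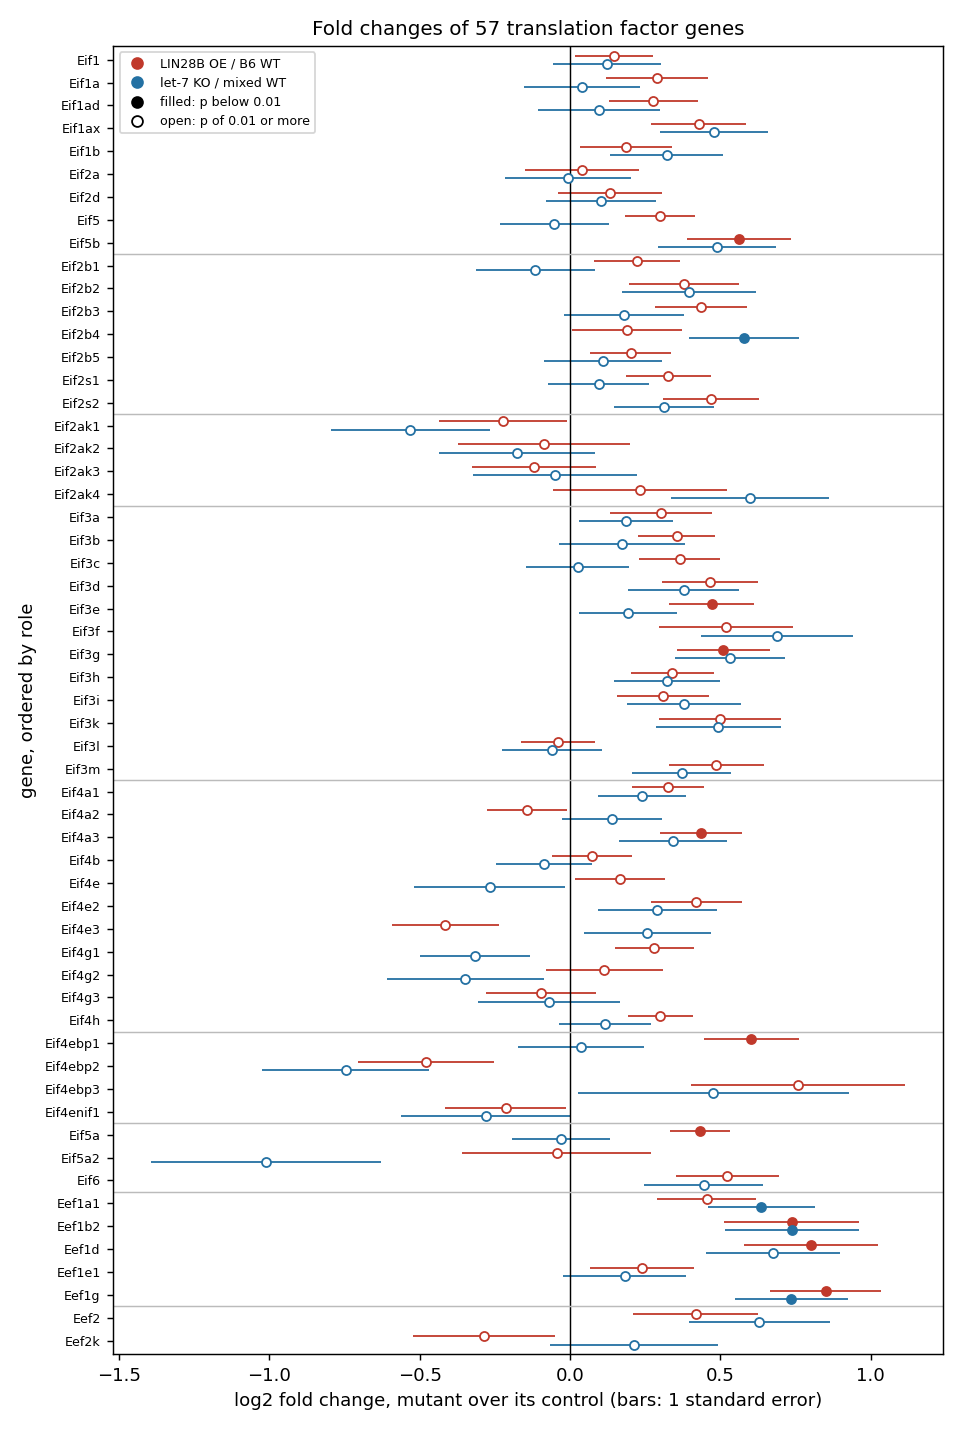
Log2 fold change of the 57 tested genes in LIN28B OE (red) and let-7 KO kidneys (blue), each over its own controls, with bars of 1 standard error, ordered by role; filled points have an unadjusted p below 0.01. The red point of Eef1g lies at 0.85 and its blue point at 0.74, and the blue point of Eif5a2 is the furthest left of its model at -1.01.

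The initiation calls also moved with the kidneys and the fit used. Where a fit without 1 kidney has no share of all genes beside it, that share was not computed. Without LIN28B OE kidney 3, 21 of 50 were called in that model, against 15.4% of all genes. Of the 50, 19 then had an adjusted p below 0.05, against 12.8% of all genes. Leaving out B6 WT kidney 1, B6 WT kidney 2 or LIN28B OE kidney 2 left 0 called, and leaving out LIN28B OE kidney 1 left 1. Without B6 WT kidney 3 the count was 8 of 50. With the length slope as a term 21 of 50 were called, against 11.8% of all genes, and the median stayed at 0.29. In that fit 17 of 50 had an adjusted p below 0.05, a share not computed for all genes. In the other model 7 of 50 were called without let-7 KO kidney 1, where 8.12% of all genes were called. The count was 0 without let-7 KO kidney 2, let-7 KO kidney 3, mixed WT kidney 1 or mixed WT kidney 3, and 1 without mixed WT kidney 2. With litter as a block 0 were called there, where 1.86% of all genes were. The fit with the length slope called 1 of 50 in let-7 KO kidneys, a different gene, Eif2ak4 in place of Eif2b4, where 1.67% of all genes were called.

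Set side by side, 38 of the 57 factors were above 0 in both models, 8 below 0 in both and 11 of opposite sign, and the models share no samples. Of 15136 genes tested in both models, 30.9% were above 0 in both, 34.6% below 0 in both and 34.5% of opposite sign. Interaction tests in a fit of all 12 kidneys called 0 of 57 at p below 0.01, where 1.55% of 16598 genes were called, with 3 at an unadjusted p below 0.05 (Eif4g1, Eif4e3 and Eif5a), where 6.27% of all genes were, and DESeq2 called 2 (Eif4e3 and Eif4g1), where it called 2.49% of all genes. For Eef1g the difference between the models was 0.09 on the log2 scale (SE 0.28) and for Eef1a1 it was -0.20 (SE 0.26). Strain, experiment and litters cannot be told apart between the 2 control groups, nor in the difference between the models. Between these control groups edgeR called 0 of 57, where 3.32% of all genes were called. At an unadjusted p below 0.05 there were 3 initiation factors and 1 elongation factor, where 9.58% of all genes were. DESeq2 called 1 there, where it called 5.15% of all genes. That gene, Eif4ebp1, was 0.52 higher in mixed WT (edgeR adjusted p = 0.346).

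The 9 factors long known to have TOP mRNAs (Eef1a1, Eef1b2, Eef1d, Eef1g, Eef2, Eif3e, Eif3f, Eif3h and Eif4b) had a median log2 fold change of 0.47 in LIN28B OE and 0.64 in let-7 KO kidneys, against 0.29 and 0.13 for the other 48 tested factors. Of the 9, 4 and 3 were called, all higher, where 3.25% and 1.1% of all genes were called higher. With the length slope as a term the medians of the 9 were 0.35 and 0.18, and those of the other 48 were 0.26 and 0.12. Eif4b, the helicase cofactor, was the exception in both models, at 0.07 and -0.09.

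Genes of the pathway outside the naming rule were looked at as 3 lists, beside 7.33% of all genes called in LIN28B OE and 2.73% in let-7 KO kidneys. Of 18 other translation genes, 2 were called higher in LIN28B OE kidneys, the reinitiation factor Denr (0.57, adjusted p = 0.0969) and the release factor Gspt1 (0.50, adjusted p = 0.119), and 0 in let-7 KO kidneys, with medians of 0.19 and 0.25. Of 12 genes of mTOR control, 1 was called, the mTOR inhibitor Deptor, lower by 0.69 in LIN28B OE kidneys (adjusted p = 0.11), and it differed by -0.70 (adjusted p = 0.369) in let-7 KO kidneys. Mtor itself differed by -0.52 (adjusted p = 0.197) and -0.27 (adjusted p = 0.778), and the medians of this list were -0.009 and -0.039. The third list held 10 genes, Atf4 and targets of ATF4, the factor translated when eIF2 is phosphorylated. Of these, the serine synthesis genes Psat1 (0.61) and Phgdh (0.49) were called higher and the lipoprotein receptor Vldlr (-0.47) lower in LIN28B OE kidneys. Among let-7 KO kidneys Asns, asparagine synthetase, was called lower (-0.94, adjusted p = 0.362), and the list's median was -0.40. Trib3 (SE 1.47) and Chac1 (SE 1.22) were poorly measured there. The mixed WT controls were themselves high for this list. Against B6 WT, 9 of 10 genes were above 0 in mixed WT, with a median of 0.98. Of these, Ddit3, Asns and Phgdh were called, where 3.32% of all genes were. The part of the controls in the let-7 KO values was not tested.

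Summed levels of cell type markers also differed between the models and their controls. All 5 cap mesenchyme markers, which include Six2 and Cited1, were detected, and their summed level was 306 to 362 CPM in LIN28B OE against 59.2 to 76.4 CPM in B6 WT, and 70.8 to 106 CPM in let-7 KO against 46.3 to 49.4 CPM in mixed WT. Single markers were less clear in let-7 KO kidneys, where Six2 overlapped its controls (log2 fold change 0.94, adjusted p = 0.541 by edgeR). The 6 proximal tubule markers summed to 1020 to 1170 CPM against 2160 to 2200 CPM, and to 2240 to 2550 CPM against 2940 to 3470 CPM. The 5 dividing cell markers summed to 810 to 924 CPM in LIN28B OE against 652 to 715 CPM in B6 WT, and to 446 to 512 CPM in let-7 KO against 476 to 568 CPM. Among them Top2a differed by 0.51 in LIN28B OE kidneys (adjusted p = 0.0684 by edgeR), and Bub1 by 0.22 (adjusted p = 0.763). By kidney, the cap mesenchyme sum was 318, 306 and 362 CPM in LIN28B OE and 72.2, 70.8 and 106 CPM in let-7 KO kidneys, so that kidney 3 had the highest sum in both groups, with the lowest elongation factor share of the LIN28B OE group and the highest of the let-7 KO group. Within the LIN28B OE group the markers differed, with Six2 at 111, 108 and 168 CPM and Cited1 at 90.5, 78.8 and 63.7 CPM. The 3 collecting duct markers summed to 1450, 1420 and 829 CPM in LIN28B OE against 1230 to 1520 CPM in B6 WT, and to 2420, 2320 and 1890 CPM in let-7 KO against 832 to 2090 CPM in mixed WT kidneys. The part of cell makeup in the factor levels was not tested, and in whole-organ RNA more cells of a type cannot be told apart from more RNA per cell.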

How the data were processed

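Libraries were made from total RNA of each kidney with a SMARTer Ultra Low RNA kit, which keeps no strand, and sequenced by Illumina. For every kidney the authors deposited unnormalised read counts by gene symbol. The submitters' processing notes name cutadapt, TopHat2 2.0.9, Bowtie2, SAMtools 0.1.19, HTSeq and the mm10 build. How HTSeq was set for reads with several placements is not given in the sources used here. Reads of overlapping or antisense genes cannot be told apart.

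Samples were grouped by genotype and strain in the labels. The factors, their roles and the lists were chosen with earlier results of these data known. Each model was fitted with its own controls in edgeR 4.0.16 (R 4.3.3): filterByExpr (minimum count 10, minimum total 15), TMM scaling, then quasi-likelihood F tests, with p-values adjusted over all genes tested by Benjamini-Hochberg. They measure the spread between kidneys of 2 litters. The standard error is the log2 fold change over the square root of F. The contrast of the 2 control groups and the difference between models came from a fit of all 12 kidneys. A call is p below 0.01. Shares of counts were compared by exact permutation (scipy 1.17.1).

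Named by rule were factors with an adjusted p below 0.05, in each model the 5 initiation and 3 elongation factors with the smallest p and those with the highest and lowest fold change, and a set list of core factors, 31 genes in all. Other names were chosen after their values were seen. The sample titles give litter numbers, so litter was also fitted as a block. Between a control and a mutant kidney, deviations from group means correlated at -0.084 to 0.066 within a litter and at -0.053 to 0.077 across litters. Pairs of the same genotype were not in these correlations. Their chi-square per gene was 60.6 between LIN28B OE kidneys 1 and 2, of one litter, against 238 and 227 with kidney 3. In B6 WT it was 31.7 against 76.4 and 55.9. Litter did not order the pairs this way in mixed WT (118 against 97.2 and 208) or let-7 KO kidneys (162 against 240 and 92.9). Lengths, positions and 3′ UTRs came from GENCODE M21 on GRCm38, which matched 94.4% of 24062 genes. Alternatives were DESeq2 1.42.0, upper-quartile scaling, no filter, the litter block, a fit of all 12 kidneys, the length slope as a term, an adjusted p below 0.05, the 6 controls alone and each kidney left out. Promoter and protein sequences were not used here.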

Additional observations from a re-analysis of the deposited data

How the results depend on the processing

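The counts of called factors moved with the settings. In LIN28B OE kidneys, 6 of 50 were called. The count was 14 with DESeq2, 2 with upper-quartile scaling, 21 with the length slope as a term and 0 to 21 with a kidney left out. At an adjusted p below 0.05 it was 0 in the main fit and 17 with the length slope. In let-7 KO kidneys, 1 was called, with 3 by DESeq2, 3 in one fit of all 12 kidneys, 0 at an adjusted p below 0.05 and 0 to 7 with a kidney left out. Elongation calls in LIN28B OE kidneys went from 3 of 7 to 5 with the length slope and 1 to 5 with a kidney left out. At an adjusted p below 0.05 they were 0 in the main fit, 5 with the length slope and 1 in one fit of all 12 kidneys. In let-7 KO kidneys calls went from 3 to 5 with DESeq2, 1 with the length slope and 0 to 5 with a kidney left out. There 0 had an adjusted p below 0.05 in the main fit. Pairing by litter, as a replicate block, gave 2 initiation and 1 elongation call in LIN28B OE kidneys and 0 and 2 in let-7 KO kidneys, and 0 in both other comparisons. Between the 2 control groups, 0 initiation calls became 1 with DESeq2, 1 with the 6 controls alone and 0 to 1 with a kidney left out. For the difference between the models they became 2 with DESeq2 and 0 to 1 with a kidney left out. Of all genes, 7.33% were called in LIN28B OE and 2.73% in let-7 KO kidneys in the main fit. These shares were 10.9% and 5.44% with DESeq2, 11.8% and 1.67% with the length slope, and 5.72% and 1.86% with the litter block. No such share was computed for upper-quartile scaling or the fit of all 12 kidneys in these models, so those counts cannot be set against all genes. The cause of these changes was not tested.

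In the 2 models, medians and differences in share kept their sign under every setting run. Between the control groups the initiation median went from 0.018 to -0.001 with upper-quartile scaling. The elongation median there went from -0.057 to 0.08 without B6 WT kidney 3 and 0.009 without mixed WT kidney 3. For the difference between the models the elongation median, -0.022, lay between -0.2 and 0.1 with a kidney left out. The elongation median in let-7 KO kidneys was 0.29 with the length slope, against 0.64. With a kidney left out, the elongation medians ranged from 0.37 to 0.62 in LIN28B OE and from 0.45 to 0.85 in let-7 KO kidneys, and the initiation medians from 0.27 to 0.33 and from 0.10 to 0.16. The differences in share ranged from 0.119 to 0.216 and from 0.138 to 0.249 percentage points for elongation, and from 0.191 to 0.212 and from 0.0126 to 0.0585 for initiation.

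Of 720 values of named genes under alternatives, 599 kept their direction and side of the threshold, 62 lost the call, 35 gained it and 24 changed sign, each of the last from a value that was not called. With the length slope as a term, the sign changed for Eif5a2 in LIN28B OE kidneys (0.085) and, in let-7 KO kidneys, for Eef2k (-0.033), Eif1 (-0.15), Eif2ak3 (0.29), Eif4e (0.061), Eif4ebp1 (-0.30) and Eif5 (0.10), and with upper-quartile scaling for Eif5a in let-7 KO kidneys (0.004). With a kidney left out, the sign was not fixed in LIN28B OE kidneys for Eif2ak3 (-0.20 to 0.028), Eif2ak4 (-0.10 to 0.43) and Eif5a2 (-0.44 to 0.15), and in let-7 KO kidneys for Eif1a (-0.12 to 0.20), Eif2ak3 (-0.24 to 0.13), Eif2s1 (-0.014 to 0.16), Eif4ebp1 (-0.10 to 0.23), Eif5 (-0.18 to 0.079) and Eif5a (-0.10 to 0.10). With 3 kidneys a group, standard errors of named genes ranged from 0.10 to 0.32 in LIN28B OE and from 0.15 to 0.38 in let-7 KO kidneys, and smaller differences could not be told from 0. Differences well above 1 standard error also went uncalled, such as Eef2 in let-7 KO kidneys at 0.63 (SE 0.23).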
